A study of Mus musculus with 36 samples.

Results

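The miRNAs of 2 B3 cell lines, one with inducible Ikaros and one without, were compared 18 h after 4-hydroxy-tamoxifen (4-OHT). The comparison used the 6 samples that the labels place at 18 h, 3 of each line, out of 36 samples in the series, and took the Ikaros line minus the control line over all 469 miRNAs of the table. B3 is a mouse pre-B cell line. The Ikaros line carries an MSCV retrovirus that encodes haemagglutinin-tagged wild-type Ikaros fused to an estrogen receptor domain that binds hormone (HA-Ikaros-ERt2), followed by IRES and GFP, and the control line carries the vector with ERt2 and no Ikaros. Both lines received 0.5 uM 4-OHT, which moves an ERt2 fusion protein from the cytoplasm into the nucleus, so that the drug itself is shared by both groups. The promoter of the retrovirus, and not that of the Ikaros gene, drives the fusion protein, and each line is a transduced culture of one cell line, so that a difference that arose when the lines were made is part of the comparison too. Replicates 1, 2 and 4 of the 2 lines share culture batches 1, 2 and 3, which makes the samples separate cultures. The time is that of the sample labels and titles, while the treatment protocol in the labels, worded alike for every sample, gives 2 h of 4-OHT before collection.

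Ikaros is a zinc-finger transcription factor of lymphocytes that, in pre-B cells, is known to stop proliferation and to drive the cells to the next stage of differentiation. A miRNA is cut from a hairpin, and each hairpin gives a 5p and a 3p arm, of which one is usually loaded and kept and the other is short-lived. The seed, bases 2 to 8 from the 5′ end, pairs with target mRNAs, so miRNAs with the same seed share most of their targets, and hairpins that lie close together are often cut from one primary transcript.

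The sequences behind the largest differences are shown first. They are RefSeq mature miRNAs of GRCm38.p6, matched by name, with the seed in capitals. A sequence was matched for 391 of the 469 names, and for 11 of the 12 miRNAs with the largest higher level and 11 of the 12 with the largest lower level in the Ikaros line. MiR-532-5p and miR-467a-3p are the 2 named without one.

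Of the 12 miRNAs with the largest positive differences, 10 came from 5 hairpins on chromosome X (GRCm38, minus strand, 7237683 to 7248497) inside introns of Clcn5, a chloride and proton exchanger gene. They are shown because all of their measured arms differed. MiR-500-3p and miR-501-3p share one seed, and miR-362-5p and miR-500-5p share another.
miR-188-5p: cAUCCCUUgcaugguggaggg
miR-188-3p: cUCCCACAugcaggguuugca
miR-532-3p: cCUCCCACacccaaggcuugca
miR-501-5p: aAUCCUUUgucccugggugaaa
miR-501-3p: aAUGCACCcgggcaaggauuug
miR-500-5p: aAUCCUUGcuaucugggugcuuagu
miR-500-3p: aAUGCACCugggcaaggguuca
miR-362-5p: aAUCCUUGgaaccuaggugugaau
miR-362-3p: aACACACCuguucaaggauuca

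The next sequences complete the 12 higher miRNAs, with miR-10a-5p added because it has the seed of miR-10b-5p. The latter 2 differ by a single base (U12A from miR-10a-5p to miR-10b-5p, counted from the 5′ end), so reads with an error at that base can be given to the wrong member.
miR-28a-3p: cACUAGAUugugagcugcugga
miR-10b-5p: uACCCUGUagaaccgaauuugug
miR-10a-5p: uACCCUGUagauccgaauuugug

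The next sequences are those of the miRNAs with the largest negative differences. MiR-19b-1-5p and miR-19b-2-5p share a seed and come from the paralogous miR-17-92 and miR-106a-363 clusters.
miR-92a-1-5p: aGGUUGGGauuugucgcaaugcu
miR-92a-2-5p: aGGUGGGGauugguggcauuac
miR-19b-1-5p: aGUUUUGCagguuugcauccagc
miR-19b-2-5p: aGUUUUGCagauuugcaguucagc
miR-23a-5p: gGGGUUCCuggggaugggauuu
miR-27a-5p: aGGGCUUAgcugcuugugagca
miR-34a-3p: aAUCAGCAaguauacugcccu
miR-34b-3p: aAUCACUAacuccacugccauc
miR-3091-3p: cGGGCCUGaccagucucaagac
miR-411-5p: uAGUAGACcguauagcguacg
miR-541-5p: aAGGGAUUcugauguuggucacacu

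The last set is one seed family, spread over 3 clusters, whose members differed between the lines in opposite directions.
miR-17-5p: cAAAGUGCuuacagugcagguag
miR-20a-5p: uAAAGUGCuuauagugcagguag
miR-20b-5p: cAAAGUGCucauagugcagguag
miR-106a-5p: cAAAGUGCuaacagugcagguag
miR-93-5p: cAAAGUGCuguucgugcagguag
miR-106b-5p: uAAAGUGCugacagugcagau

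Levels were deposited as normalised log2 values, and all differences are log2 differences of such levels, Ikaros minus control. At 18 h the levels ranged from 0.26 to 18.75. Sample medians were between 3.93 and 4.14 in the control line and between 3.73 and 3.96 in the Ikaros line. The table holds no counts, and the study reports reads per sample only as a range, so the depth of each single sample is unknown. Precision rests on 3 samples per group, with a median SD of 0.26 in the control line and 0.24 in the Ikaros line. According to the design drawn by the study, the libraries of the 18 h control samples belong to the second sequencing batch and those of the Ikaros line to the first, with Ikaros replicate 1 sequenced in both. Line and sequencing batch cannot be told apart at 18 h except through the correction of the authors, which used such technical replicates. Of the miRNAs that mark other cells, the erythroid miR-451a and miR-144 and the liver and muscle markers miR-122 and miR-1a were not in the table. Of the neuronal markers, miR-124 was not in the table, but miR-9-5p was abundant (13.09 to 13.55, rank 17 of 469) at levels that overlapped between the lines. MiR-143-3p of stroma was near the floor (0.45 to 1.22), and miR-223-3p of myeloid cells was between 1.81 and 3.69. Of the epithelial markers, miR-205 was not in the table, but arms of miR-200a, miR-200b, miR-200c, miR-141 and miR-429 were measured. They ranged from miR-141-3p (0.55 to 2.09) to miR-429-3p (5.56 to 6.63, rank 157 of 469), with miR-200b-3p between 3.34 and 5.86. The B-lineage markers miR-181a-5p (17.93 to 18.42), miR-142-5p (14.26 to 15.10) and miR-155-5p (10.73 to 11.01) were high in both lines, whereas miR-150-5p, abundant in mature lymphocytes, was low (3.07 to 4.18).

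The lines differed widely at 18 h. Of 469 miRNAs, 140 passed the test at an adjusted p-value under 0.05 (limma with Benjamini-Hochberg adjustment), which is 29.9%. Of these, 61 (13% of all) were higher and 79 (16.8%) were lower in the Ikaros line. A difference of at least 1 log2 unit, a change of level by a factor of 2 or more, was seen for 80 of them (17.1% of all), 33 higher and 47 lower. All 140 had the same sign in the 3 pairs of one culture batch, against 277 of all 469 (59.1%). The samples of the 2 lines did not overlap for 136 of the 140, against 223 of all 469 (47.5%). The 140 were picked by their difference in these same samples, so neither count is separate support for them. Over all miRNAs the median difference was -0.0095, and it moved to 0.163 when the median of each sample was subtracted. Under that scaling the split was 86 higher and 56 lower, so the balance between higher and lower calls depends on the scaling, and small differences of either sign carry this shift. The median half-width of the unadjusted 95% interval of a difference was 0.61 for the miRNAs that did not pass, so changes of about that size may have been missed among them. It is not a limit of detection, since smaller differences passed for other miRNAs, such as miR-15a-5p (0.43).

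**Figure D1:**
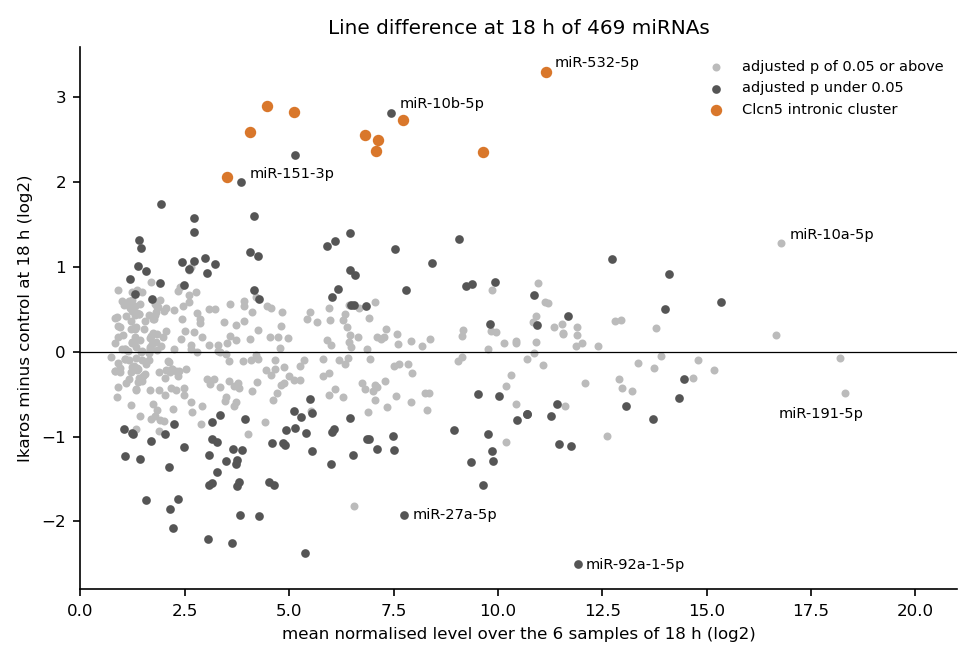
Line difference at 18 h (y axis, log2, Ikaros minus control) against the mean normalised level over the 6 samples (x axis, log2) for 469 miRNAs. Dark points passed the test, and the 10 measured members of the Clcn5 cluster, in orange, sit between 2.05 and 3.30, at the top of the plot over a wide range of levels.

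The Clcn5 cluster was the group with the largest differences. Its 10 measured arms, of 12 listed, were all higher in the Ikaros line, with a median difference of 2.57 and a range from 2.05 to 3.30, and they made up 10 of the 12 largest positive differences. The background of higher calls over all miRNAs was 13%. MiR-660, the other hairpin of the list, was not in the table under its name. The same 10 passed after subtracting sample medians and after quantile normalisation.

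MiR-532-5p had the largest difference of the table. Its level was 9.49, 9.41 and 9.65 in control replicates 1, 2 and 4 and 13.04, 12.97 and 12.44 in the Ikaros replicates. The lowest Ikaros sample was thus far above the highest control sample, and the difference was 3.30 (SE 0.23, limma adjusted p = 1.74e-12), a 9.84-fold higher level. It was also the most abundant arm of the cluster, ranked 44 of 469 by level.

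The other arm of the same hairpin, miR-532-3p, was at 6.14, 6.38 and 6.57 in the control line and at 8.97, 9.30 and 9.00 in the Ikaros line. Both arms of miR-188 were higher as well, with miR-188-5p at 2.83, 3.03 and 3.24 against 6.38, 5.67 and 5.72. MiR-188-3p was at 3.92, 3.47 and 3.71 against 6.72, 6.73 and 6.14. In each of these the groups were well separated, and the differences were 2.73 (SE 0.28) for miR-532-3p, 2.89 (SE 0.34) for miR-188-5p and 2.83 (SE 0.33) for miR-188-3p.

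MiR-500-3p was at 5.66, 5.91 and 6.04 in the control line and at 8.43, 8.33 and 8.34 in the Ikaros line. MiR-501-3p, which has the same seed, was at 8.66, 8.18 and 8.55 against 11.41, 10.45 and 10.57. Among the others, miR-501-5p had the widest spread, with 1.68, 3.00 and 3.60 in the control line against 5.60, 5.55 and 4.88, where control replicate 1 was the low sample. MiR-362-3p was at 5.21, 5.80 and 5.64 in the control line and at 8.05, 8.55 and 7.70 in the Ikaros line, and miR-362-5p differed by 2.37 (SE 0.40).

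This cluster also differed between the lines before induction. At 0 h, without 4-OHT according to the methods of the study, 9 of its 10 arms were already higher in the Ikaros line, against a background of 8.53% of all miRNAs called at 0 h. The 0 h differences were between 1.10 for miR-500-5p, the arm that did not pass there, and 1.87 for miR-501-5p. All 10 differences were larger at 18 h than at 0 h, and the increase itself passed the test for miR-532-5p alone (1.60, SE 0.33, adjusted p = 0.0020).

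The remaining 2 of the 12 were miR-10b-5p and miR-28a-3p. MiR-10b is encoded on chromosome 2 (74726070 to 74726137, plus strand) in the Hox D region, in introns of Hoxd3 and Hoxd4. Its level was 6.58, 5.91 and 5.63 in the control line against 8.93, 9.05 and 8.59 in the Ikaros line, a difference of 2.82 (SE 0.68, adjusted p = 0.0020). The difference was 2.73 at 0 h, and the change between the 2 times was 0.09 with an SE of 0.96, too imprecise to tell a rise from a fall (adjusted p = 0.97). MiR-28a, from an intron of Lpp on chromosome 16, was at 4.37, 3.66 and 3.93 in the control line and at 6.33, 6.78 and 5.82 in the Ikaros line. It was higher by 2.32 (SE 0.28, adjusted p = 1.72e-07), 5.00-fold, and was already higher at 0 h by 1.33 (adjusted p = 0.0011).

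MiR-10a-5p, the abundant relative of miR-10b-5p, was at 16.56, 16.12 and 15.78 in the control line and at 17.04, 17.58 and 17.67 in the Ikaros line. The groups did not overlap and the difference was 1.28 (SE 0.57), but it did not pass (adjusted p = 0.093) unless only the 6 samples of 18 h were fitted. At 0 h the mean of miR-10a-5p was already higher in the Ikaros line, at 18.13 (SD 0.33) against 16.08 (SD 0.43). Since miR-10a-5p stood far above miR-10b-5p in every sample, and they are 1 base apart, part of the counts of the latter may belong to the former, which was not tested.

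**Figure D2:**
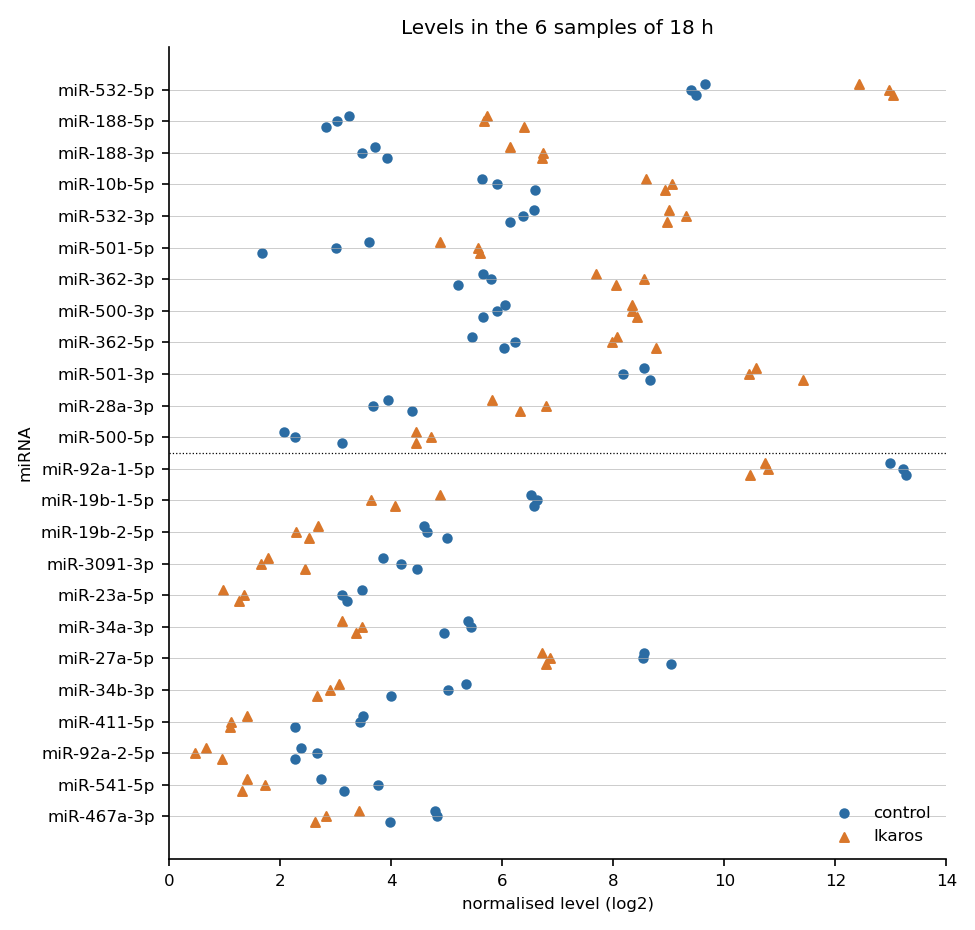
Normalised level (x axis, log2) of the 12 miRNAs with the largest positive (above the dotted line) and the 12 with the largest negative difference in each of the 6 samples of 18 h, control as circles and Ikaros as triangles, drawn within a row from replicate 1 below to replicate 4 above. The lines do not overlap in any of the 24 rows.

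The largest negative differences were in the miR-17-92 cluster (chromosome 14, 115043671 to 115044506, plus strand, in exons of Mir17hg), a polycistron known to promote proliferation and the survival of early B cells. MiR-92a-1-5p was at 13.28, 13.22 and 12.98 in the control line and at 10.46, 10.78 and 10.73 in the Ikaros line. The groups were more than 2 units apart, and the difference of -2.51 (SE 0.18, adjusted p = 1.74e-12) is a 5.68-fold lower level. This arm was abundant, ranked 29 of 469. MiR-19b-1-5p was at 6.56, 6.62 and 6.51 against 4.07, 3.63 and 4.87, with Ikaros replicate 4 the least affected.

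The 2 kinds of arm of this cluster were listed apart. Of the 6 partner arms, 4 were lower and none higher, with a median difference of -0.98, against 16.8% lower calls and a median of -0.0095 over all miRNAs. Besides the 2 above these were miR-19a-5p (-1.16) and miR-20a-3p (-0.80). In the fit with a replicate block for culture batch miR-17-3p (-0.34, adjusted p = 0.049) passed as well, and after subtraction of sample medians 3 of the 6 passed. Of the 6 guide arms, 2 were lower, miR-17-5p (-1.03, SE 0.35, adjusted p = 0.023) and miR-20a-5p (-0.64, SE 0.24, adjusted p = 0.039), and their median was -0.82. Neither of the 2 passed after subtraction of sample medians, so the call of the guide arms depends on the scaling.

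MiR-92a-3p, the guide arm opposite to miR-92a-1-5p, was at 12.202, 12.331 and 12.543 in the control line and at 12.286, 12.599 and 12.396 in the Ikaros line, where the lines overlapped (difference 0.07, SE 0.27). It is also made from the hairpin Mir92-2 of the miR-106a-363 cluster, as miR-19b-3p is from 2 hairpins, so its level is the sum of both. The guide arms miR-19a-3p (-1.06) and miR-19b-3p (-0.99) did not pass, with SEs of 1.33 and 1.27. These SEs take in the spread of all times, and for miR-19a-3p the Ikaros SD was 2.18 at 2 h and 3.72 at 12 h. MiR-19a-3p passed under 2 of 14 other settings. Control replicate 1 was the highest 18 h sample for both arms.

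The paralogous clusters differed between the lines in opposite directions. All 10 listed arms of miR-106a-363 (chromosome X, 52741693 to 52742567, minus strand) were lower in the Ikaros line, from -0.74 for miR-363-3p to -2.25 for miR-19b-2-5p. Of the 6 arms of miR-106b-25, which lies within Mcm7 on chromosome 5, a gene of the replicative helicase, 4 were higher and none lower. After quantile normalisation 2 of the 4 remained past the threshold, and after subtraction of sample medians all 4 did. Of the 16 arms of both clusters, 6 passed at 0 h already, against 8.53% of all miRNAs. The change of the line difference from 0 h to 18 h passed for 0 of the 16, against 5.33% of all.

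Of the 10 arms of miR-106a-363, 9 passed after either scaling. MiR-19b-2-5p, with the seed of miR-19b-1-5p, was at 5.01, 4.65 and 4.59 in the control line and at 2.52, 2.29 and 2.68 in the Ikaros line. MiR-92a-2-5p of the same cluster was at 2.27, 2.67 and 2.38 against 0.96, 0.46 and 0.66, with the Ikaros samples close to the floor of the table. In the miR-106b-25 cluster the largest difference was that of miR-106b-3p (1.05, SE 0.18), at 8.05, 7.77 and 7.89 against 9.04, 9.16 and 8.65. MiR-25-3p, the fifth most abundant miRNA at 18 h, was at 14.97, 15.02 and 15.19 against 15.47, 15.71 and 15.75, a small but separated difference of 0.58 (SE 0.16, adjusted p = 0.0068).

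**Figure D3:**
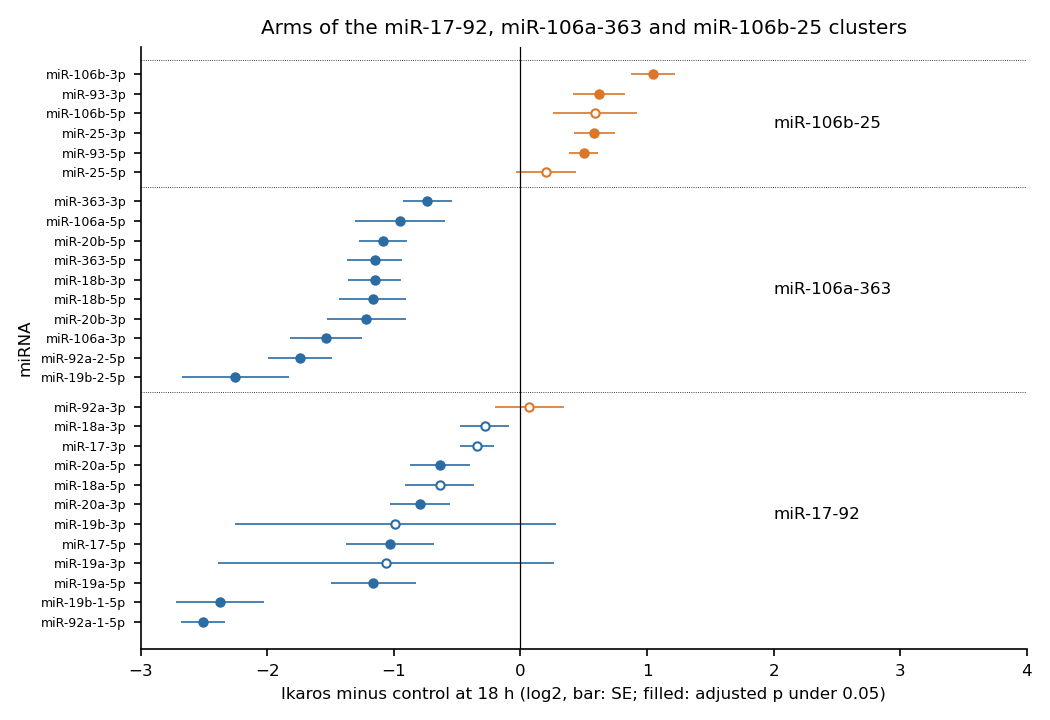
Line difference at 18 h (x axis, log2, with SE) of the arms of the miR-17-92, miR-106a-363 and miR-106b-25 clusters, filled where the adjusted p was under 0.05. The arms of miR-106a-363 all lie below 0 and those of miR-106b-25 all above it, and miR-92a-3p and miR-19b-3p, drawn under miR-17-92, are also made by miR-106a-363.

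One seed was therefore split between directions. The family with the seed AAAGUGC, which is known to target cell-cycle inhibitors, has 6 measured members, of which 4 were lower, 1 was higher and 1 did not pass. MiR-20b-5p was the most clearly lower, at 11.754, 12.062 and 12.199 in the control line and 10.989, 10.840 and 10.930 in the Ikaros line (-1.09, SE 0.19, adjusted p = 4.46e-05). MiR-106a-5p was lower too (-0.95, SE 0.35, adjusted p = 0.040). MiR-93-5p was higher, at 13.74, 13.69 and 13.87 against 14.16, 14.22 and 14.41 (0.50, SE 0.11, adjusted p = 0.00095), and it was the most abundant of the 6. MiR-106b-5p had a difference of 0.59 (SE 0.33, adjusted p = 0.18). MiR-17-5p and miR-106a-5p differ by 1 base (A10U from miR-106a-5p to miR-17-5p), so reads may be shared between them, and their values are less certain than those of the members that differ more.

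Such a split can be seen only where 2 or more members passed. Among 41 seeds with 2 or more measured members, 12 had 2 or more members that passed, and in 9 of those the calls had one direction. Some of the 9 join arms of one cluster, such as miR-500-3p and miR-501-3p, so their calls are not separate. Whether 9 of 12 is more than unrelated miRNAs would give was not tested. The other 3 were AAAGUGC, the let-7 seed GAGGUAG and the seed AUUGCAC of miR-25, miR-32, miR-92 and miR-363. In AUUGCAC miR-25-3p was higher and miR-363-3p and miR-92b-3p were lower. The split of the let-7 seed rests on the lower call of let-7f-5p, which was lost under 12 of 14 other settings. By position, 33 groups of 2 or more hairpins lay within 10000 bp of each other on one strand, 13 of them had 2 or more miRNAs that passed, and in 12 of these 13 the calls had one direction. The other was let-7b-3p, lower, beside let-7c-5p, higher, and the lower call was lost after median subtraction and after quantile normalisation. Arms of one hairpin or transcript are not separate, and whether 12 of 13 is more than unrelated miRNAs would give was not tested.

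The cluster of miR-23a, miR-27a and miR-24-2 on chromosome 8, known for holding back B-lymphoid development, was lower in the Ikaros line. All 5 of its measured arms passed, and 3 did so after subtraction of sample medians. MiR-27a-5p was at 9.04, 8.53 and 8.55 in the control line against 6.79, 6.85 and 6.72 (-1.92, SE 0.19, adjusted p = 7.22e-09). MiR-23a-5p was at 3.20, 3.10 and 3.47 against 1.26, 1.34 and 0.96. The guide arms differed less, with miR-23a-3p at -0.75 (SE 0.25) and miR-24-3p, which is also made from chromosome 13, at -0.62 (SE 0.21).

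The miR-34 family, known as targets of p53 and, for miR-34a, as a brake on the pro-B to pre-B step through Foxp1, was lower as well. Of 4 measured members of the miR-34 and miR-449 list, 3 were lower and none higher, against 16.8% lower over all miRNAs, and the median difference was -1.27. MiR-34c-5p was at 10.22, 10.61 and 10.44 against 8.73, 8.89 and 8.96 (-1.57, SE 0.23, adjusted p = 4.01e-06). MiR-34a-5p was at 10.13, 10.24 and 10.37 against 9.54, 9.14 and 9.15, a difference of -0.97 (SE 0.17). Their partner arms at lower levels were among the 12 largest. MiR-34a-3p was at 4.95, 5.44 and 5.38 against 3.36, 3.47 and 3.11, and miR-34b-3p at 3.99, 5.02 and 5.35 against 2.66, 2.90 and 3.05. MiR-449a-5p, which carries the same seed, had a difference of 0.54 (SE 0.26) that did not pass (adjusted p = 0.12) but did after subtraction of sample medians or quantile normalisation.

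The other named miRNAs on the lower side had low levels. MiR-411-5p (control 2.26, 3.44 and 3.48, Ikaros 1.10, 1.12 and 1.40) and miR-541-5p (control 3.15, 3.76 and 2.73, Ikaros 1.31, 1.72 and 1.41) lie on chromosome 12 in the imprinted Dlk1 to Dio3 region. Both were already lower at 0 h, with differences of -2.15 and -2.45, and the changes from there to 18 h did not pass. MiR-3091-3p, from an intron of Rps21, was at 4.47, 4.17 and 3.85 against 2.44, 1.66 and 1.78. MiR-467a-3p, of a repeat-rich family, was at 3.98, 4.83 and 4.78 against 2.62, 2.81 and 3.42.

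The 10 most abundant held between 76.2% and 78.4% of the summed linear values of a sample at 18 h, and 3 of them passed the test, a share like the 29.9% of all miRNAs. These were miR-25-3p above, let-7f-5p (-0.32, SE 0.12, adjusted p = 0.049) and miR-181a-1-3p (-0.55, SE 0.17, adjusted p = 0.012). MiR-191-5p, the most abundant, held between 27.4% and 30.6% of the sum in the control line and between 19.4% and 22.0% in the Ikaros line. Its log2 difference of -0.48 (SE 0.22) did not pass (adjusted p = 0.10). MiR-181a-5p, known to raise the sensitivity of antigen receptor signalling, held between 21.2% and 24.0% in the control line and between 20.8% and 23.7% in the Ikaros line, which overlap. MiR-10a-5p took between 4.37% and 6.71% in the control line and between 11.3% and 14.5% in the Ikaros line, where its mean level was already higher at 0 h. MiR-16-5p (difference 0.20, SE 0.13), miR-21a-5p (-0.21, SE 0.14), miR-181b-5p (-0.09, SE 0.20) and miR-142-5p (-0.31, SE 0.30) did not pass.

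Families tied to differentiation and growth arrest were counted member by member, and their calls were few, as over all miRNAs, of which 13% were higher and 16.8% lower. In the let-7 family, whose members restrain growth, 6 of 9 listed guide arms were measured. The low-level let-7c-5p was higher (1.11, SE 0.26, adjusted p = 0.0016), let-7f-5p was lower by a small amount that was lost under 12 of 14 other settings, and 4 did not pass. In the miR-15, miR-16, miR-195 and miR-497 family, inhibitors of cyclin expression, 1 of 6 was higher, miR-15a-5p (0.43, SE 0.13, adjusted p = 0.016), and miR-195a-5p had the largest difference without passing (0.70, SE 0.28, adjusted p = 0.055). In the miR-29 family, 1 of 3 was higher, miR-29c-3p, at 5.13, 5.67 and 5.55 against 6.73, 6.69 and 6.87 (1.31, SE 0.17, adjusted p = 6.31e-07), while miR-29a-3p, the most abundant, had a difference of -0.08 (SE 0.15). MiR-29a-3p and miR-29c-3p differ by 1 base (C10U from miR-29a-3p to miR-29c-3p), so reads may be shared between them, which was not tested. None of the 4 measured members of the miR-30 family (0.07 to 0.61, with miR-30b-5p the most abundant at 0.20 and miR-30e-5p the largest) and none of the 4 of the miR-181 family (-0.09 to 0.29, the largest being miR-181c-5p) passed.

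Of 21 listed regulators of lymphocytes, 18 were measured, 4 were higher, 3 were lower and 11 did not pass, with a median difference of -0.06. Over all miRNAs 13% were higher and 16.8% lower, so the list as a whole was close to the background. MiR-342-3p, from an intron of Evl, was at 7.03, 6.85 and 6.94 in the control line and at 8.16, 8.12 and 8.17 in the Ikaros line (1.21, SE 0.16, adjusted p = 9.03e-07). MiR-26a-5p, a regulator of Ezh2, was at 13.65, 13.66 and 13.59 against 14.47, 14.55 and 14.62 (0.91, SE 0.13, adjusted p = 2.86e-06). MiR-126a-3p (0.96, SE 0.18) and miR-146b-5p (0.54, SE 0.21, adjusted p = 0.046) were the other 2 higher. For miR-126a-3p the gap was wider at 0 h, where the means were 7.55 for Ikaros cells and 5.98 for control cells. By 18 h these means were 6.94 and 5.97, and the change of its line difference from 0 h did not pass. MiR-221-3p, known from haematopoietic progenitors, was lower, at 10.17, 9.84 and 10.05 against 8.67, 8.76 and 8.72 (-1.30, SE 0.18, adjusted p = 2.00e-06), with miR-23a-3p and miR-24-3p. MiR-222-3p, from the neighbouring hairpin and with the same seed as miR-221-3p, had a difference of 0.10 that did not pass. For miR-155-5p the difference was -0.01 with a 95% interval of -0.38 to 0.36. After subtraction of sample medians 5 were higher and 1 lower, so the balance in this list depends on the scaling.

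To separate what the lines carried before induction from what was there only later, the line difference at 18 h was tested against that at 0 h. It changed for 25 of 469 miRNAs (5.33%), 13 upwards and 12 downwards, and 23 of the 25 also passed at 18 h. The labels give the 4-OHT dose for 0 h too, while the methods describe those samples as uninduced. The cultures of 0 h were other batches than those of 18 h, and the control samples of 0 h were also sequenced in the first sequencing batch, so time cannot be told apart from these. The count was 40 when only the samples of the 2 times were fitted, 65 when they were fitted with the replicate block of culture batch, and between 17 and 30 when any single sample was left out, with 17 without control replicate 4 of 0 h.

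The 3 largest upward changes were miR-151-3p, miR-677-5p and miR-1934-3p. MiR-151-3p was at 2.89, 2.60 and 3.07 in the control line and at 4.87, 4.95 and 4.73 in the Ikaros line at 18 h. The lines thus differed by 2.00 at 18 h but by -0.65 at 0 h, a change of 2.65 (SE 0.44, adjusted p = 0.00023). MiR-677-5p, whose hairpin also overlaps a snoRNA in an intron of Atp5b, changed by 1.80 (SE 0.43) and was close to the floor in the control line (0.64, 1.27 and 1.27). MiR-1934-3p, at 0.89, 0.81 and 0.53 against 2.18, 2.37 and 1.61, also changed by 1.80 (SE 0.38).

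Upward changes were also seen at higher levels than those of these 3. The mean level at 18 h was 14.09 for miR-26a-5p, 7.55 for miR-342-3p and 6.11 for miR-29c-3p. MiR-26a-5p changed by 1.11 (SE 0.18, adjusted p = 0.00023), miR-22-3p by 0.97 (SE 0.18, adjusted p = 0.0010), miR-342-3p by 1.11 (SE 0.23) and miR-29c-3p by 0.97 (SE 0.24). In these 4 the line difference at 0 h was between -0.20 and 0.33.

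The largest downward changes were miR-19b-1-5p (-2.15, SE 0.49), miR-92a-1-5p (-2.14, SE 0.25) and miR-23a-5p (-1.94, SE 0.45), with adjusted p-values of 0.0053, 5.92e-07 and 0.0058. For all 3 the lines were close at 0 h, with differences of -0.22, -0.37 and -0.14. MiR-146a-5p, a brake on NF-kB signalling, went another way. It was higher in the Ikaros line at 0 h by 1.36, and at 18 h the lines overlapped (control 8.99, 8.90 and 9.42, Ikaros 8.76, 8.82 and 9.39), a change of -1.47 (SE 0.29, adjusted p = 0.0020).

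**Figure D4:**
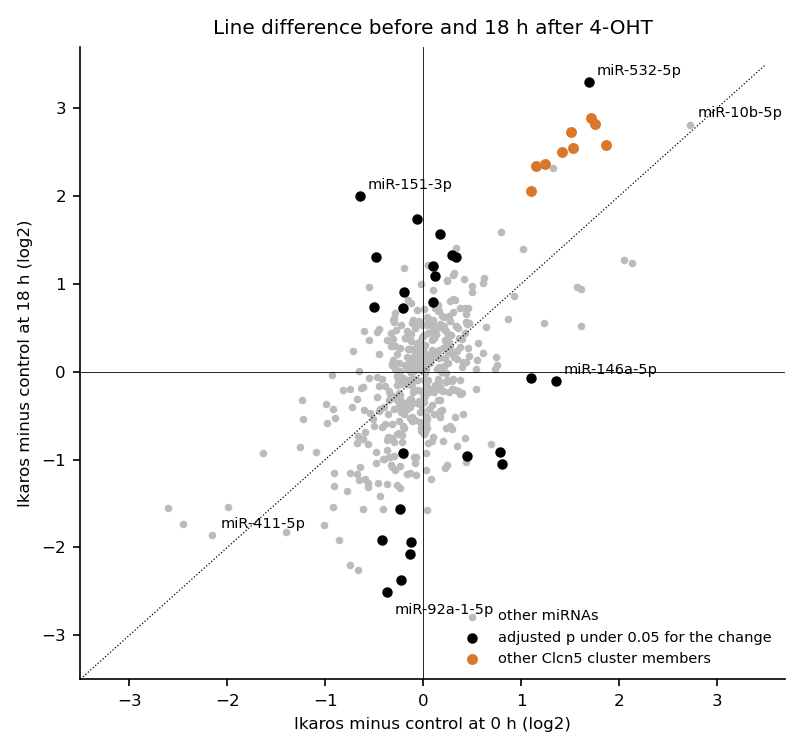
Line difference at 18 h (y axis, log2) against that at 0 h (x axis, log2) for 469 miRNAs, with the 25 whose difference changed in black and the other 9 members of the Clcn5 cluster in orange. The Clcn5 members are above 0 at both times and above the dotted line of equal differences, whereas miR-92a-1-5p and miR-151-3p lie near 0 or on the other side at 0 h.

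Few changes were called against the neighbouring times. The line difference changed between 12 h and 18 h for 1 miRNA (0.213%), miR-92a-2-5p (-1.67, adjusted p = 0.024), while 56 had an unadjusted p under 0.05. With the replicate block 4 passed, and without control replicate 4 of 12 h 10 did, so this count rests on single samples. Between 18 h and 24 h none passed (0%), and 28 had an unadjusted p under 0.05. At 24 h, where all samples of both lines were in the first sequencing batch and some in both, 187 miRNAs (39.9%) differed between the lines. Of the 140 miRNAs called at 18 h, 138 had a difference of the same sign at 24 h in other samples, against 378 of all 469 (80.6%), and 115 had the same sign at 0 h already, against 305 of all 469 (65%). All 24 with the largest differences at 18 h passed at 24 h.

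Within each line, 18 h was compared with 2 h, the earliest time of the same culture batches. In the Ikaros line 54 miRNAs (11.5%) changed, 20 upwards and 34 downwards. In the control line none passed by limma (0%), and 32 had an unadjusted p under 0.05. The split in the Ikaros line became 27 upwards and 24 downwards after subtraction of sample medians and 23 each way after quantile normalisation, and the count fell to 19 when only those 6 samples were fitted and to 30 without Ikaros replicate 2 of 18 h. MiR-151-3p rose by 2.59 (SE 0.31, adjusted p = 7.31e-07) in the Ikaros line and had a change of -0.50 (SE 0.31) in the control line. MiR-92a-1-5p fell by 1.71 (SE 0.18, adjusted p = 3.76e-08) in the Ikaros line and had a change of 0.20 (SE 0.18) in the control line. MiR-532-5p rose by 0.85 (SE 0.23, adjusted p = 0.013), and of the other 9 arms of the Clcn5 cluster miR-362-3p rose (1.07, adjusted p = 0.017). The Ikaros samples of 2 h and 18 h belong to one sequencing batch, and so do the control samples of these times. Both comparisons use the samples of 18 h, so they are not independent of the difference between the lines.

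**Figure D5:**
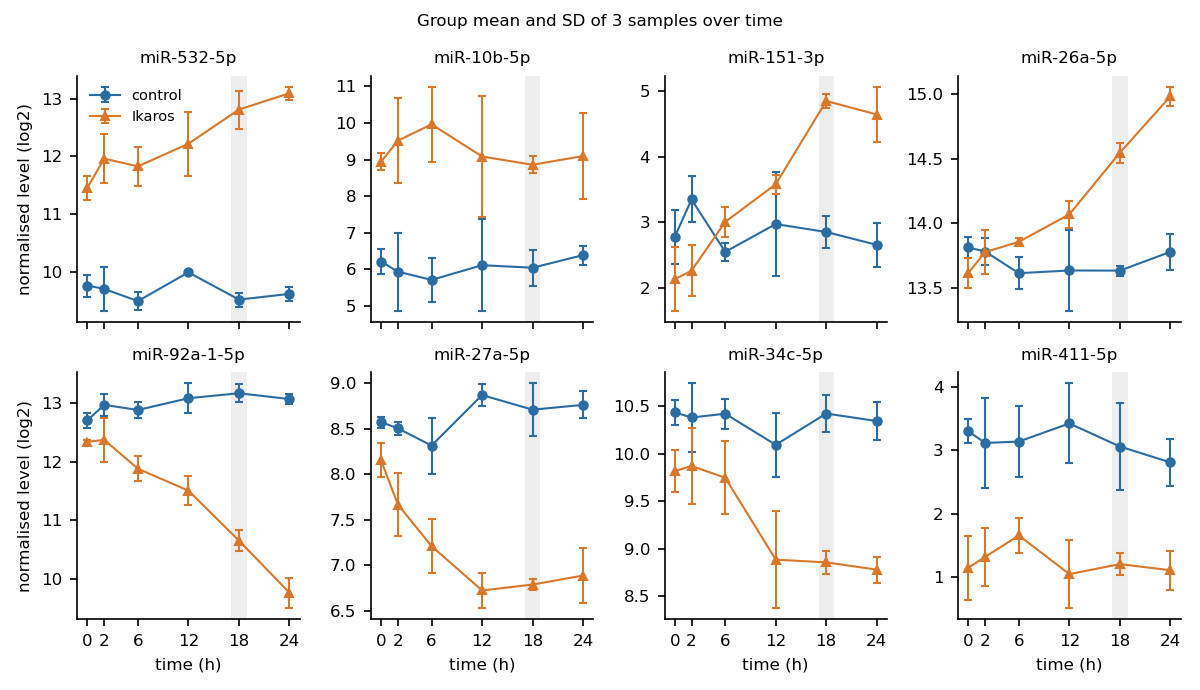
Mean normalised level (y axis, log2) with the SD of 3 samples against time (x axis, h) in the control line (circles) and the Ikaros line (triangles) for 8 miRNAs, with 18 h shaded. The means of miR-10b-5p and miR-411-5p are apart from 0 h on. MiR-151-3p and miR-26a-5p separate upwards in the Ikaros line and miR-92a-1-5p, miR-27a-5p and miR-34c-5p downwards. For miR-34c-5p the change of the line difference from 0 h to 18 h did not pass the test.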

How the data were processed

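Small RNA of B3 cells was sequenced by the study (36 samples, 2 lines, 6 times). The deposited values are log2 levels made by the authors, who aligned reads with Novoalign to miRBase sequences, counted them, removed miRNAs of low CPM, corrected GC content with cqn, normalised with TMM, used ComBat against the batch effect and averaged the technical replicates of a sample. The submitters' notes also name bedtools and mm10. Errors left by these corrections are carried into every value. No counts were used, so the depth of each single sample and the counting error are unknown.

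Differences were fitted with limma 3.58.1 in R 4.3.3 (lmFit, then eBayes with trend=TRUE) on the values as deposited, with a mean for each of 12 groups over all 36 samples, no filter, and Benjamini-Hochberg adjustment over 469 miRNAs per comparison at 0.05. The same code was tested on simulated data. Groups, replicate numbers and culture batches are those of the labels. Same-numbered samples share a culture batch, and the correlations of their deviations at 18 h were 0.05, -0.03 and 0.13. The fit with this batch as a replicate block is an alternative. Other alternatives were the samples of the comparison alone, other scalings, a filter on the mean level, no trend, and leaving out each sample. Named were the 12 largest differences per direction among those called with one sign in all pairs, the 10 most abundant, the highest level and largest difference of each list and the 3 largest changes per direction, besides members of a few families. The comparison, lists and this rule were chosen with earlier results of these data known. MiRNAs that are discussed by genomic position, by seed counts or outside these sets were chosen after their values were seen. MiR-497a was matched to the older name miR-497. Sequences and hairpin positions were matched by name to RefSeq (GRCm38.p6) and host genes taken from GENCODE vM21. Hairpins within 10000 bp on a strand were grouped. Tables and figures were made with pandas 2.3.3 and matplotlib 3.10.9.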

Additional observations from a re-analysis of the deposited data

Results flagged for a closer look

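The line difference was not the same at 18 h as at 0 h for 25 miRNAs, each by the limma test of the change itself (adjusted p-value under 0.05). In log2 units, the 13 that changed upwards were miR-151-3p (2.65), miR-677-5p (1.80), miR-1934-3p (1.80), miR-532-5p (1.60), miR-22-5p (1.40), miR-149-5p (1.24), miR-26a-5p (1.11), miR-342-3p (1.11), miR-872-3p (1.03), miR-29c-3p (0.97), miR-22-3p (0.97), miR-1198-5p (0.93) and miR-361-5p (0.70). The 12 that changed downwards were miR-19b-1-5p (-2.15), miR-92a-1-5p (-2.14), miR-23a-5p (-1.94), miR-7a-2-3p (-1.86), miR-34a-3p (-1.82), miR-146a-3p (-1.69), miR-27a-5p (-1.50), miR-146a-5p (-1.47), miR-7679-3p (-1.41), miR-1187 (-1.33), miR-3058-3p (-1.16) and miR-467c-5p (-0.72). MiR-146a-5p and miR-3058-3p are those of the 25 that did not pass at 18 h, and they differed between the lines at 0 h instead, by 1.36 and 1.10.

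Between 12 h and 18 h the line difference changed for 1 miRNA, miR-92a-2-5p (-1.67). It was -0.07 at 12 h and -1.74 at 18 h, but also -1.02 at 0 h, and the level in the Ikaros line at 18 h is near the lowest of the table. The call was lost when only the samples of the 2 times were fitted. Groups of 3 samples were not screened for outlying samples.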

How the results depend on the processing

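The count of 140 miRNAs at 18 h was between 104 and 133 when a single 18 h sample was left out, lowest without Ikaros replicate 2, and between 129 and 163 under the other settings. It was 147 with the replicate block of culture batch, which kept all 140. The block changed no call of a named miRNA other than that of miR-17-3p. The 24 miRNAs with the largest differences passed with the same sign in all 335 other fits. The calls of let-7f-5p and miR-20a-5p, both close to the threshold, were lost in 12 and 8 of 14 fits, and that of miR-181a-1-3p in 4. MiR-16-5p had a difference of 0.20 that did not pass and passed at -0.69 after quantile normalisation, which makes the distribution of levels equal in all samples.

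For the change from 0 h, 25 became 40 with the samples of the 2 times alone and 65 with these and the replicate block, and leaving out 1 sample gave 17 to 30. For 12 h to 18 h, 1 became 0 with the samples of the 2 times alone, with or without the block, 4 with the replicate block, 2 after each of median subtraction, quantile normalisation and the filter at a mean level of 2, 3 without the trend and 0 to 10 when 1 sample was left out, with 10 without control replicate 4, 8 without Ikaros replicate 1 and 7 without control replicate 1, all of 12 h, and 0 without control replicate 2 of either time or without control replicate 4, Ikaros replicate 2 or Ikaros replicate 4 of 18 h. For 18 h to 24 h, 0 became 1 after quantile normalisation. In the Ikaros line, 54 changes since 2 h became 19 with the 6 samples alone and 16 with these and the replicate block, and 30 to 53 when 1 sample was left out, with 30 without Ikaros replicate 2 and 36 without Ikaros replicate 1 of 18 h. In the control line, 0 became 0 to 2, with 2 without control replicate 2 of 2 h. The cause was not tested for any of these. The precision is set by 3 samples per group, and the correction for sequencing batch could not be varied.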

Other observations

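Other groups of neighbouring hairpins, chosen after their values were seen, also had one direction. In the cluster of miR-322, miR-503, miR-542, miR-450 and miR-351 on chromosome X (53047997 to 53054349, minus strand), 5 of 12 measured miRNAs were higher in the Ikaros line by the limma test and none was lower, with a median difference of 0.64, against 13% higher over all miRNAs. Among these were miR-450b-5p (0.91), miR-542-3p (0.72) and miR-503-3p (1.22). The cluster of miR-200a, miR-200b and miR-429 on chromosome 4 holds epithelial markers that were present in both lines. Of its measured miRNAs, 3 of 5 were lower and none higher, against 16.8% lower over all. Among the 3 was miR-200b-3p (control 5.29 ± 0.67, Ikaros 3.75 ± 0.36, SD, n = 3). No member of either cluster was called in the other direction under median subtraction and quantile normalisation.

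The miR-297, miR-466, miR-467 and miR-669 families, many of which are encoded as near-identical copies in an intron of Sfmbt2, had 35 measured miRNAs, of which 15 were lower and none was higher, against 16.8% lower over all miRNAs. Their differences were negative for 34 of 35, with a median of -0.71 against -0.0095 over all miRNAs, and the median was -0.17 at 0 h and -0.76 at 24 h. After subtraction of sample medians 13 were lower, and after quantile normalisation 18. Reads of these copies can be assigned to more than one of them, so the 35 are not separate measurements.

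The 2 arms of a hairpin were compared with each other as well. Among 129 hairpins with both arms measured, the ratio of the 5p to the 3p arm differed between the lines at 18 h for 2 (1.55%), by a limma fit of that ratio chosen after the values were seen. The ratio fell in the Ikaros line for miR-23a (-1.32, SE 0.27, adjusted p = 0.0048) and rose for miR-1198 (1.14, SE 0.30, adjusted p = 0.036), and with the replicate block 3 passed. The hairpins of miR-19b-1-5p and miR-92a-1-5p are not among the 129, since their 3p arms are also made from a second hairpin.

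Across the 391 miRNAs with a sequence, the line difference had a Pearson correlation of 0.02 (Spearman 0.01) with GC content, and across all 469 it had one of 0.003 (Spearman -0.05) with the mean level at 18 h. These are descriptions across miRNAs that share the same 6 samples.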
